A study of Mus musculus with 2 samples.

Results

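The nuclear genes for the subunits of respiratory complexes II, III, IV and V, with the gene for cytochrome c, were followed through long-read RNA sequencing of gastrocnemius muscle. Members were the annotated genes with a read whose symbol was Sdha to Sdhd, Cyc1, Cycs, or began with Uqcr, Cox4 to Cox8 or Atp5, without symbols marked as pseudogenes by -ps. These were 47 gene entries of the 14900 annotated genes with reads, and 45 of them had the 10 reads over both libraries needed for a test. They comprised 4 genes of complex II, 9 of complex III, 1 for cytochrome c, 15 of complex IV and 18 of complex V. Of the entries not tested, Cox6c2, annotated as a processed pseudogene, had 1 and 0 reads, and a second gene entry named Atp5o, on chromosome 16 from 91684398 to 91926982, had 0 and 1. Cox4i2, Cox6b2, Cox7b2 and Cox8c were annotated but had no read in either library.

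The series held 1 group of 2 libraries, labelled biological replicates 1 and 2, from the gastrocnemius, a calf muscle, of B6CASTF1/J mice, male and 18 to 20 months old. These are hybrids of C57BL/6J and CAST/EiJ, and no treatment is named. Each library was made from 2 µg of RNA with SIRV and ERCC spike-in controls. The labels give separate biosamples but the same donor entry for both, and whether each library came from 1 mouse or from pooled tissue is not given in the sources used here, so the spread between the libraries may be technical.

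Complexes II to IV pass electrons from succinate and ubiquinol to oxygen, complexes III and IV pump protons across the inner mitochondrial membrane, and complex V, the ATP synthase, uses the proton gradient to make ATP. All subunits of complex II are nuclear, while complexes III, IV and V also contain subunits encoded in mitochondrial DNA. Several complex IV subunits exist as paralogs, with a form found mainly in heart and skeletal muscle and another found widely.

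Replicate 1 held 1509380 reads and replicate 2 held 1173233, so that 3 reads, the limit used for a count of 0, stood for 1.99 and 2.56 counts per 1000000 reads (CPM). ERCC spike-ins took 2.74% and 0.595% of reads. A long read counts as 1 cDNA whatever its length, so CPM were not divided by transcript length, but the ratio between the libraries moved with length, as described below. Fast-fibre genes of muscle held 32.6% and 31.0% of reads in sum. Of 14 tested, Myh2 (148 and 2298 CPM) and Myh1 (1112 and 5679 CPM) were called higher in replicate 2 and Tnni2, Mylpf, Myl1 and Pvalb lower. Over all genes tested, 8.24% were called higher and 2.04% lower. After the centring on length described below, Tnni2 and Myl1 were no longer called. Slow-fibre genes differed between the libraries: all 13 listed were called higher in replicate 2, beside the same 8.24%. Their summed share was 0.0428% in replicate 1 and 0.537% in replicate 2, and their part in the differences given below was not tested.

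The subunit genes together held 2.63% of all reads in replicate 1 (exact 95% interval 2.61 to 2.66) and 2.27% in replicate 2 (2.25 to 2.30), a mean of 2.45% ± 0.256 (SD, n = 2). Complex V had the largest share, with 1.14% and 0.976% of reads, followed by complex IV with 0.814% and 0.621%. Complex III held 0.485% and 0.458%, complex II 0.149% and 0.180%, and cytochrome c 0.0505% and 0.0367%. Complex II was thus the only one of these groups with a larger share in replicate 2. For scale, 38 genes with a Nduf symbol, most of them of complex I and without its assembly factors, held 1.30% and 0.993%. This count takes in Ndufa4, with 2174 and 814 reads. That gene is now placed in complex IV, but the symbol rule leaves it out of the members. Of the members, 38 stood among the 500 most read genes of the muscle and 6 among the 100 most read, and 40 had at least 100 reads in each library. In tissue RNA, fewer cells of a type and less RNA per cell cannot be told apart.

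**Figure D1:**
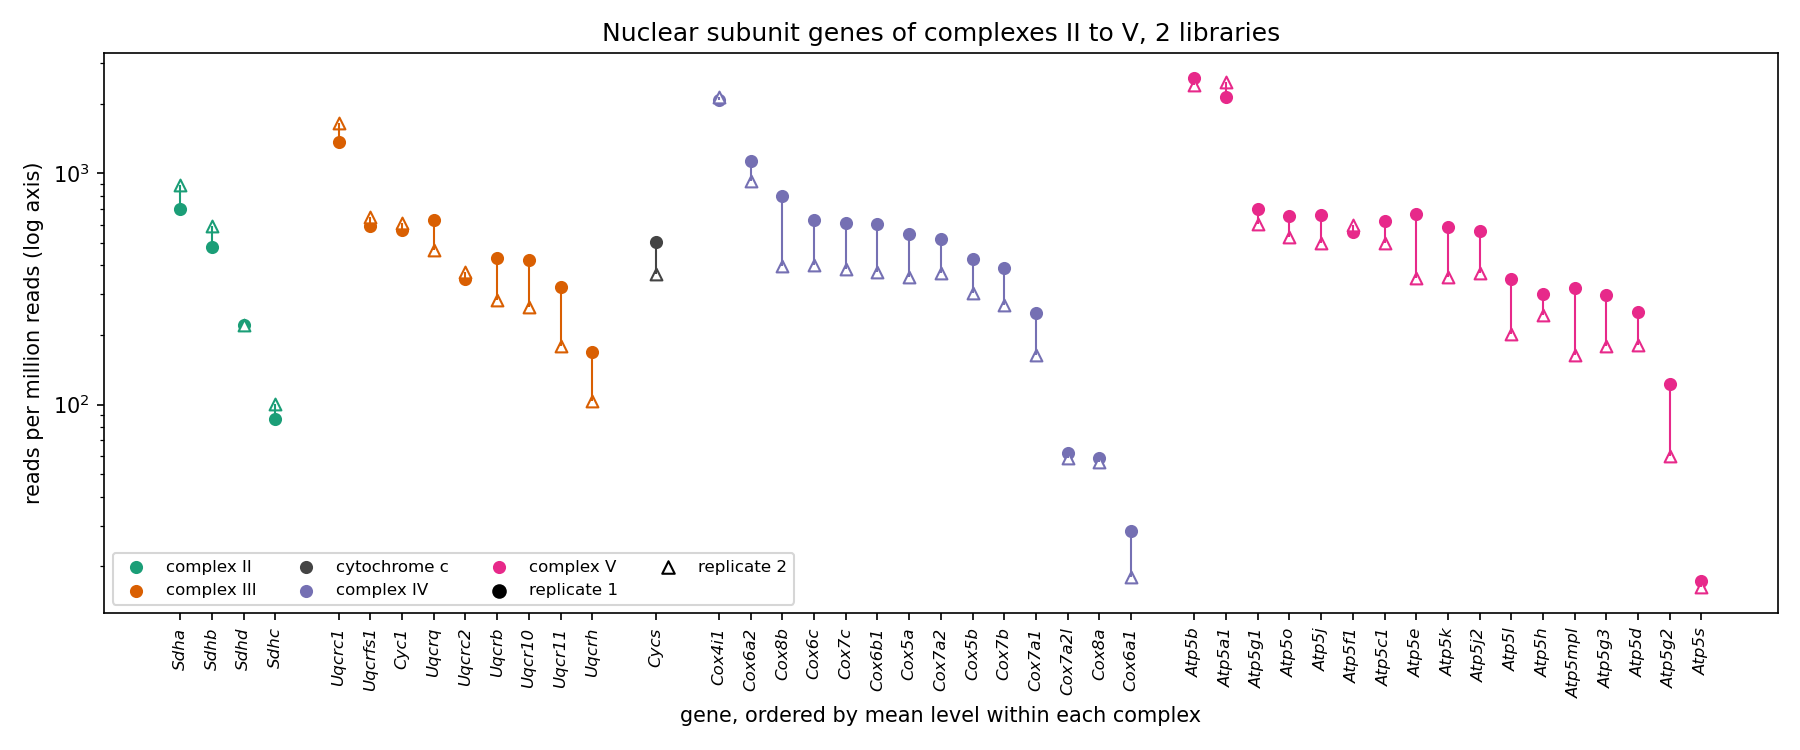
Level of each of the 45 tested subunit genes in CPM on a log axis, grouped by complex and ordered by mean; filled circles are replicate 1, open triangles replicate 2, and the line joins the libraries. The levels run from Atp5b, at 2573 and 2409 CPM, down to Atp5s, at 17.2 and 16.2 CPM, and the triangles lie below the circles for most of complexes IV and V but not for complex II.

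In complex II, succinate dehydrogenase, the catalytic subunits were the most read. Sdha, the flavoprotein that oxidises succinate, had 1058 reads in replicate 1 and 1047 in replicate 2, or 701 and 892 CPM. Sdhb, the iron-sulfur subunit, had 722 and 692 reads, or 478 and 590 CPM. Both had more CPM in replicate 2, by 0.35 and 0.30 on the log2 scale, and kept a positive ratio under every scaling tried and after the centring on length described below. The membrane anchors were less read: Sdhd stood at 220 and 221 CPM, and Sdhc at 86.8 and 101 CPM. The members of this complex therefore spanned levels from under 100 CPM for Sdhc in replicate 1 to those of Sdha, and the order Sdha, Sdhb, Sdhd, Sdhc was the same in both libraries.

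Complex III, the cytochrome bc1 complex, was led by a core subunit. Uqcrc1 had 2059 and 1928 reads, or 1364 and 1643 CPM, while its partner Uqcrc2 had 349 CPM in replicate 1 and 376 in replicate 2. The redox subunits lay between them: Uqcrfs1, the Rieske iron-sulfur protein, had 592 and 646 CPM, and Cyc1, cytochrome c1, had 570 and 612 CPM. These 4 genes all had positive ratios between the libraries, but with TMM or DESeq2 scaling only that of Uqcrc1 stayed positive. The 5 small subunits without a redox centre went the other way. Uqcrq stood at 629 and 467 CPM, Uqcrb at 432 and 284, and Uqcr10 at 421 and 264. Uqcr11 had 323 and 179 CPM. Uqcrh, the acidic hinge protein, was the least read of the complex with 169 and 104 CPM. Each of these 5 had a negative ratio, also with other scaling and, in sign, after centring on length. After centring, Uqcrb stood at -0.07, Uqcr10 at -0.14, Uqcrh at -0.16 and Uqcr11 at -0.31. None of these passed Fisher's exact test after adjustment on that scale, at any fold. Uqcrq did pass, at -0.38. It was centred on the 1521 nt of Uqcrq-201, a length that may not be that of all its reads.

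Cycs, the soluble carrier of electrons from complex III to complex IV, had 762 and 430 reads, or 505 and 366 CPM. It was lower in replicate 2, although its most read annotated transcript was long, at 3123 nt, a length that may not be that of the reads. In each library 97.2% of the reads of Cycs had the intron chain of that transcript, and the mouse genome also carries unspliced copies of this gene.

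In complex IV, cytochrome c oxidase, Cox4i1 was the most read nuclear member and stood at nearly the same level in both libraries, 2086 and 2136 CPM from 3149 and 2506 reads. Its paralog Cox4i2, known from lung, had no read, which allows up to 0.0953% of the pair's reads in replicate 1 and 0.120% in replicate 2. Cox6a2 followed among the members with 1126 and 923 CPM. Cox8b came next in replicate 1 with 800 CPM, but with 399 CPM in replicate 2 it stood level with Cox6c. A group of small subunits had similar levels to each other in replicate 1 and was lower in replicate 2. Among them Cox6c went from 628 to 400 CPM, Cox7c from 613 to 384 and Cox6b1 from 604 to 375. Cox5a, a subunit on the matrix side, had 547 and 355 CPM, and Cox5b, the zinc-binding subunit, had 425 and 303. Cox7b, on the X chromosome, had 390 and 270 CPM. Of the 14 tested genes of this complex, 13 had a negative ratio and Cox4i1 alone a positive one, of 0.03, which TMM scaling turned negative; after centring on length 9 were negative and 5 positive.

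The paralogs of complex IV showed which form this muscle used. For subunit VIa the muscle form Cox6a2, on chromosome 7 from 128205435 to 128206387, held 97.5% of the family's reads in replicate 1 (exact 95% interval 96.7 to 98.2) and 98.1% in replicate 2 (97.1 to 98.8). The widely found form Cox6a1 had only 43 and 21 reads. For subunit VIII the muscle form Cox8b had 1207 and 468 reads against 89 and 66 of the widely found Cox8a. Cox8b thus held 93.1% of the family in replicate 1 (91.6 to 94.4) and 87.6% in replicate 2 (84.6 to 90.3), intervals that do not overlap. Subunit VIIa was different: the widely found Cox7a2 was the most read form, with 62.6% and 62.4%. The muscle form Cox7a1 held 30.02% (27.5 to 32.6) and 27.7% (24.4 to 31.2), or 250 and 164 CPM. The third gene of this family, Cox7a2l, a factor in joining complexes III and IV into supercomplexes, had 7.40% and 9.91%. Cox6b2, Cox7b2 and Cox8c, known mainly from testis, had no read, which allows up to 0.682%, 0.946% and 0.562% of the reads of their families in replicate 2, the shallower library. The paralogs differ in sequence: over aligned coding bases Cox6a2 and Cox6a1 were 64.8% identical, Cox7a1 and Cox7a2 65.8%, and Cox8b and Cox8a 54.2%. Intervals cover counting error only.

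**Figure D2:**
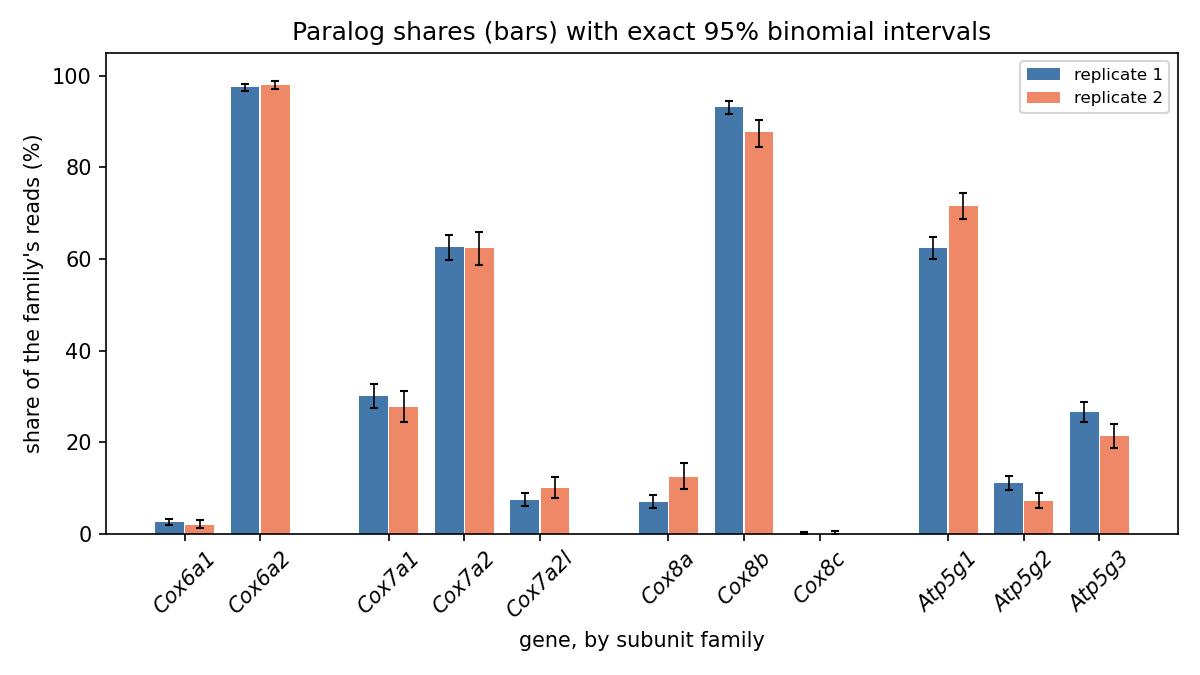
Share of the reads of each subunit family held by each paralog, in percent, with bars for replicate 1 and replicate 2 and exact 95% binomial intervals as error bars. Cox6a2 and Cox8b hold most of their families, Cox7a1 holds 30.02% and 27.7% of its family, and Atp5g1 leads the c subunit genes.

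Complex V was led by the catalytic head. Atp5b, the beta subunit that carries the catalytic sites, had 3884 and 2826 reads, or 2573 and 2409 CPM, and Atp5a1, the alpha subunit, had 3221 and 2925 reads, or 2134 and 2493 CPM. They were the most read of all members. Their order reversed between the libraries. The other parts of the head and the central stalk were less read, although each stands once in the enzyme beside several copies of alpha and beta. Atp5c1, the gamma subunit that turns inside the head, had 621 and 499 CPM. Atp5e, the epsilon subunit, had 669 and 353, and Atp5d, the delta subunit, 251 and 181. All 3 were lower in replicate 2.

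The peripheral stalk genes lay in a narrow band in replicate 1, apart from Atp5h. Atp5j, coupling factor 6, had 662 and 498 CPM, and Atp5o, which joins the stalk to the head, had 652 and 532. Atp5f1, subunit b, had 555 and 601 CPM and was, with Atp5a1, the only member of complex V with a positive ratio, which TMM scaling turned negative for Atp5f1. Atp5h, subunit d, had 302 and 244 CPM. The small membrane subunits were uniformly lower in replicate 2. Atp5k, subunit e, had 585 and 356 CPM, Atp5j2, subunit f, had 561 and 371, and Atp5l, subunit g, had 349 and 203. Atp5mpl, a small proteolipid of the enzyme, had 318 and 164 CPM. Atp5s, which the symbol rule takes in but which is no core subunit, was the least read tested member, with 26 and 19 reads.

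Subunit c, which forms the membrane ring that the proton flow turns, comes from 3 genes whose mature proteins are the same and whose targeting sequences differ. Atp5g1 held 62.4% of the family's reads in replicate 1 (exact 95% interval 60.1 to 64.8) and 71.6% in replicate 2 (68.7 to 74.4). Atp5g3 held 26.6% and 21.3%, and Atp5g2 11.0% and 7.06%, from 186 and 70 reads. Over annotated transcripts only, without its single-exon models, Atp5g2 held 5.94% and 4.83%. All 3 genes had fewer CPM in replicate 2, Atp5g1 with the smallest difference, at 700 and 605 CPM. The last 60 coding bases of the most read annotated transcript of each gene, stop codon included and from the GENCODE M21 transcripts, are shown because this stretch encodes the same end of the mature protein from different codons. Capitals mark bases that differ from Atp5g1, of which there are 8 in Atp5g2 and 12 in Atp5g3.
Atp5g1: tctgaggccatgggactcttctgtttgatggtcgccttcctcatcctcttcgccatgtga
Atp5g2: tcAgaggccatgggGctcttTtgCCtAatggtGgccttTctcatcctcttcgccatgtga
Atp5g3: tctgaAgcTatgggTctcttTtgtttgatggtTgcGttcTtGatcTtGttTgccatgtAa

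The coding regions of these genes lie on the minus strand of chromosome 11 between 96073104 and 96075025 for Atp5g1, of chromosome 15 between 102663014 and 102667749 for Atp5g2, and of chromosome 2 between 73908593 and 73910993 for Atp5g3 (mm10). Over the whole aligned coding sequence Atp5g1 was 76.5% identical to Atp5g2 and 70.7% to Atp5g3, and Atp5g2 and Atp5g3 were 71.1% identical.

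Atp5c1 is known for an exon near its 3′ end that most tissues include and striated muscle leaves out. This exon of 37 nt, on chromosome 2 from 10056770 to 10056806, was included in 12 of 935 spanning reads of replicate 1, or 1.28% (exact 95% interval 0.665 to 2.23). In replicate 2 it was included in 4 of 584, or 0.685% (0.187 to 1.74). The muscle form without the exon therefore made up nearly all spliced reads of the gene in both libraries. The 2 forms end their coding sequence differently, as shown by the annotated transcripts without the exon (Atp5c1-201) and with it (Atp5c1-203). The bases of the shared exon are in lower case, and capitals mark the bases after it up to and including the stop codon, 4 in the first and 7 in the second.
Atp5c1-201: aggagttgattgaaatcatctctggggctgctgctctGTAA
Atp5c1-203: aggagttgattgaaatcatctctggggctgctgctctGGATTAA

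Across all members, 148 annotated internal exons were spanned by at least 50 reads over both libraries. Of these, 140 were included in over 95% of spanning reads and 7, the Atp5c1 exon among them, in under 5%. The 1 exon in between was a coding exon of 69 nt in Cox7a2l, on chromosome 17 from 83503931 to 83503999. It was included in 19 of 92 spanning reads of replicate 1, or 20.7% (12.9 to 30.4), and in 5 of 67 of replicate 2, or 7.46% (2.47 to 16.6), and these exact 95% intervals overlap.

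Next, the libraries were compared gene by gene with Fisher's exact test (two-sided, the gene's reads against the rest of the library, Benjamini-Hochberg over 9032 genes). A call needed an adjusted p under 0.05 and a difference of 2-fold or more. This test compares these libraries, not conditions. No member was called higher in replicate 2, where 8.24% of all genes tested were, and 2 of 45 were called lower, where 2.04% were; in either direction 10.3% of all genes were called. Cox8b went from 800 to 399 CPM, a log2 ratio of -1.002 (adjusted p = 1.99e-38 by Fisher's exact test), and Atp5g2 from 123 to 59.7 CPM, a log2 ratio of -1.03 (adjusted p = 1.35e-06 by the same test). Both stood just past the 2-fold limit, and just inside it stood Atp5mpl at -0.95, Atp5e at -0.92 and Uqcr11 at -0.85. At any fold, 34 members passed an adjusted p of 0.05 in Fisher's exact test, against 21.4% of all genes. Of the 34, 30 were lower in replicate 2 and 4 higher, while over all genes 6.57% passed as lower and 14.8% as higher. The members are deeply read, and small differences pass this test at such depth. The 4 that were higher were Sdha, Sdhb, Uqcrc1 and Atp5a1, the last with a log2 ratio of 0.22. The median log2 ratio over the tested members was -0.46, beside 0.19 over all genes tested, and 34 of the members' ratios were negative and 11 positive, beside 3491 negative and 5541 positive over all genes.

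These ratios followed transcript length. The 8 members whose most read annotated transcript was at most 500 nt long had a median log2 ratio of -0.78, beside -0.54 for the 166 genes of that length. Atp5f1 stands among these 8 by the 407 nt of Atp5f1-202, although most of its reads had the chain of a longer model. The 21 members between 500 and 1000 nt had -0.60, beside -0.44 for 687 genes. The 12 between 1000 and 2000 nt had -0.03, beside -0.13 for 1992 genes, and the 4 longer ones 0.22, beside 0.35 for 5780 genes. Across the 45 members the ratio and the length had a Spearman correlation of 0.690, and across 8625 genes of 0.486. These genes share their libraries and are not independent, and no test was made of the correlation. The tested members had a median length of 714 nt, and all genes tested 2732 nt.

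When each log2 ratio was centred on genes of like length, in 20 bins, no member was called in either direction, where 4.67% of all genes were. The median of the members was then -0.072, with 17 positive and 28 negative ratios, beside 4380 positive and 4245 negative ones over all genes. At any fold, 13 of the 45 passed an adjusted p of 0.05 in Fisher's exact test, where 11.2% of all genes did. Sdhb, Uqcrc1, Uqcrfs1, Cox4i1, Cox6a2, Atp5a1, Atp5f1 and Atp5g1 passed as higher in replicate 2. Uqcrq, Cox8b, Atp5e, Atp5mpl and Cycs passed as lower. Cox8b stood at -0.47 and Atp5g2 at -0.51 on this scale. Cycs, with a long annotated transcript but lower in replicate 2, was the lowest member after centring, at -0.76. No read ends are given, so the reads of Cycs may be shorter than that transcript. Sdhb stood at 0.62 and Uqcrc1 at 0.31. For Atp5f1 (0.65) and Cox4i1 (0.57) the length came from a short annotated retained-intron transcript, so their centred values rest on a length that may not be that of the reads. Atp5f1 was centred on 407 nt, while 93.1% and 93.8% of its reads had an intron chain whose model was 1118 nt long. Its centred value is therefore not one for genes of the length of that model. Centred instead on the length of its most read protein-coding transcript, a setting added after seeing the data, Cox4i1 stood at 0.61. Scaling also moved these counts: with TMM, which brought the median of all genes to 0.00, or with DESeq2 size factors, 5 members were called lower, with Atp5mpl, Atp5e and Uqcr11 added, and 5 ratios were positive. Over all genes TMM turned 744 higher and 184 lower calls into 443 and 376.

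**Figure D3:**
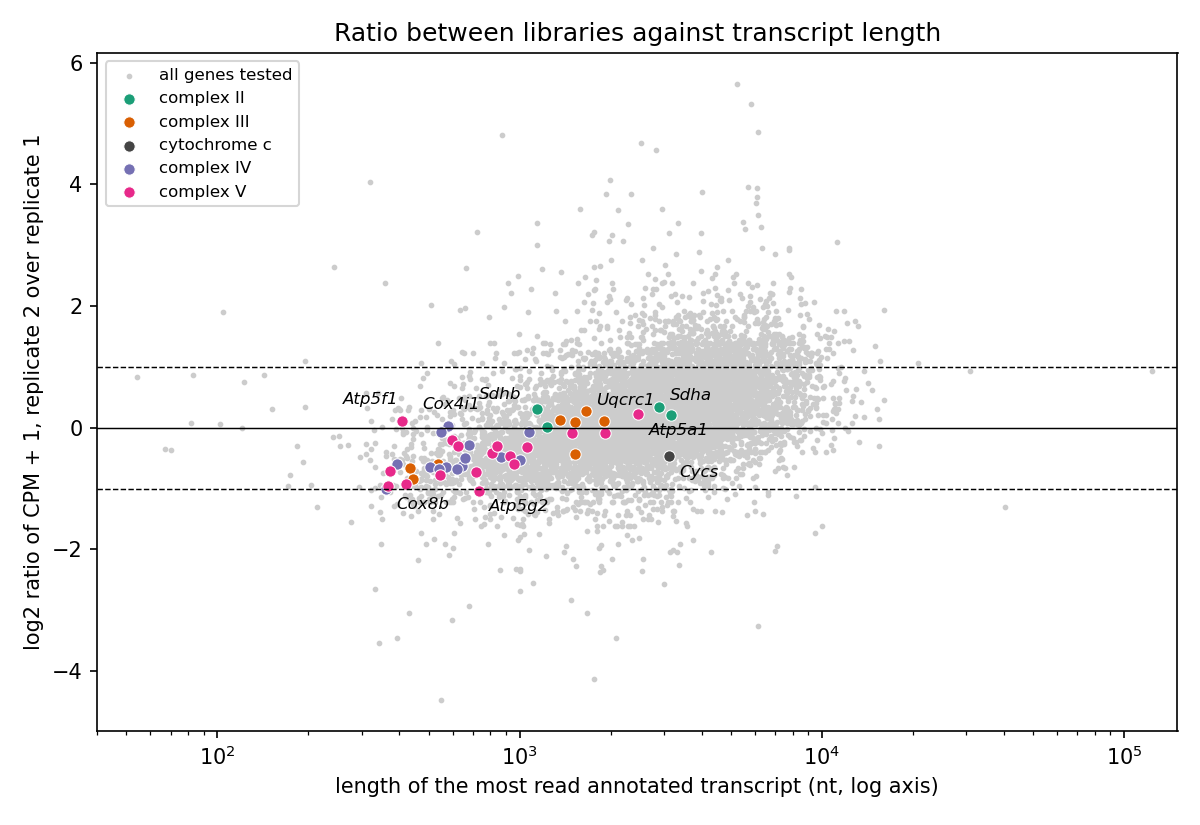
Log2 ratio of CPM + 1, replicate 2 over replicate 1, against transcript length in nt (log axis, most read annotated transcript of each gene), with all tested genes that had a length in grey and the members in colour by complex. The cloud of all genes climbs with length, most short members lie between 0 and the dashed 2-fold line at -1, and the long Sdha and Atp5a1 lie above 0 while Cycs lies below.

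Other genes of the respiratory system were read beside the members. Of 43 assembly factors, electron-transfer genes and further subunits, 41 were tested, and 2 were called higher in replicate 2 and 3 lower, with a median log2 ratio of -0.40; this number of calls is near the 10.3% of all genes. The higher ones were Lrpprc, which stabilises mitochondrial mRNA (81.5 and 203 CPM), and Etfdh, which passes electrons from fatty acid oxidation to ubiquinone (70.2 and 148 CPM). The lower ones were Ndufa4, now placed in complex IV (1440 and 694 CPM), Uqcc2, an assembly factor of complex III (155 and 68.2 CPM), and Higd2a, an assembly factor of complex IV (95.4 and 41.8 CPM). None of these 5 was called after centring on length, while Coa7 then was, at -1.20. Of the mitochondrially encoded subunits none of the 5 tested was called; all had positive ratios, with a median of 0.38 beside 0.19 over all genes, and 3 passed an adjusted p of 0.05 at any fold in Fisher's exact test. Their levels were uneven: mt-Co1 had 667 and 1007 CPM and mt-Cytb 578 and 670, but mt-Co2 only 41.7 and 79.3. After centring on length their median was 0.77. All 5 then passed an adjusted p of 0.05 in Fisher's exact test, where 11.2% of all genes did. On this scale mt-Co2 was called higher, at 1.44, from 63 and 93 reads. mt-Atp8 had 1 and 0 reads.

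Of the 9 tested regulators of nuclear respiratory genes, 4 were called higher in replicate 2, where 8.24% of all genes were. They were Ppargc1a, a coactivator of mitochondrial biogenesis (19 and 43 reads), Esrrg, an orphan receptor (8 and 58 reads), Gabpa, a subunit of an ETS factor (30 and 50 reads), and Perm1, a muscle regulator downstream of the coactivator (110 and 210 reads). None of the 3 that could be centred on length was called then, and Esrrg had no length to centre on. Nrf1, Esrra and Tfam were not called, with log2 ratios of 0.47, 0.24 and -0.05. No member of the complexes was called higher beside these regulators. Markers of other cells moved as well: 4 of 7 tested endothelial genes were called higher in replicate 2, beside the same 8.24% (0.00782% and 0.0194% of reads summed). None of the 4 haemoglobin genes was called (0.0205% and 0.0124%), and of 3 tested adipocyte genes Lep was called higher, with the list at 0.00702% and 0.00767%. After centring on length only Cldn5 and Eng of the endothelial genes were still called, as was Lep. Over all genes 4.67% were then called in either direction. Ucp1, the defining gene of brown fat, where Cox8b and Cox7a1 are also read, had no read in either library. The part of these cells in the members' ratios was not tested.

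Reads were then sorted into transcript forms by intron chain. In the 44 members that had 20 or more reads in both libraries, the most read form held a median of 93.7% of the gene's reads, beside 76.1% over the 4535 genes tested, and in 28 of the 44 it held at least 90% on the mean of the libraries, which 22.4% of all these genes reached. The dominant form was an annotated protein-coding transcript in 41. Atp5e-201, at 99.3% and 99.5%, and Atp5k-201, at 99.2% and 97.9%, were close to having a single form. By Fisher's exact test of the dominant form's reads against the gene's other reads, with Benjamini-Hochberg adjustment, 2 of the 44 members were called between the libraries, beside 2.65% of all genes tested. At an unadjusted p below 0.05 in this test there were 12 of the 44 members and 479 of the 4535 genes. The members are deeply read, and small differences in share reach such a p more easily at that depth.

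**Figure D4:**
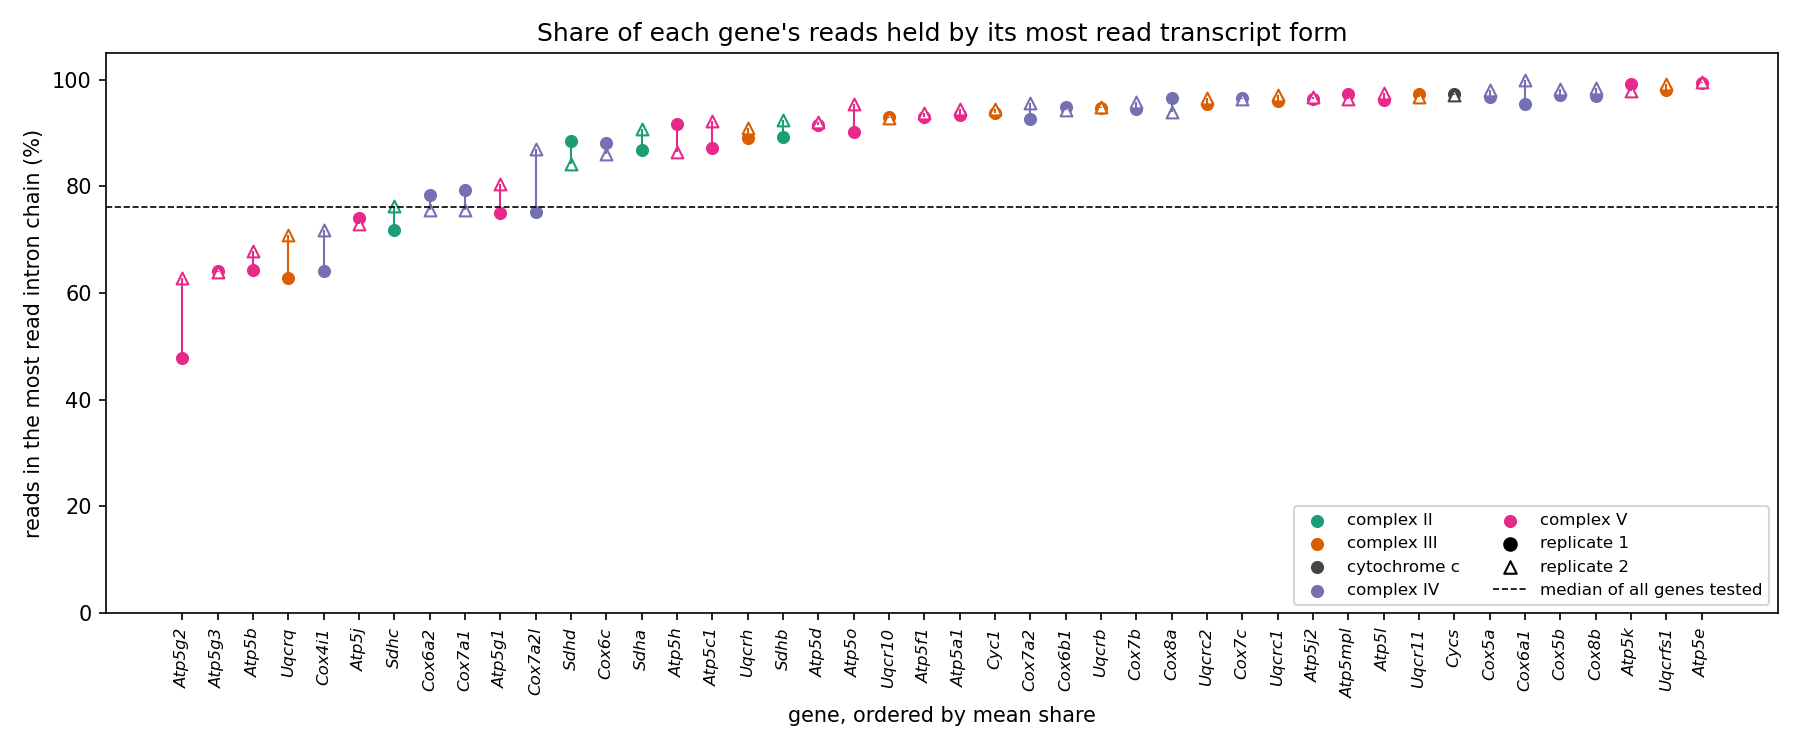
Share of each gene's reads, in percent, held by its most read intron chain, for 44 members ordered by mean, with circles for replicate 1 and triangles for replicate 2 and a dashed line at the median of all genes tested, 76.1%. In 28 of the members the mean share is at least 90%, and Atp5g2, Atp5g3, Atp5b, Uqcrq and Cox4i1 lie lowest, with means under 70%.

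Cox4i1 was the called member with the deepest reads. Its most read form was not the full coding transcript Cox4i1-201, with 1048 and 657 reads, but Cox4i1-204, annotated as a retained intron, with 2019 and 1799. The share of Cox4i1-204 went from 64.1% to 71.8% (adjusted p = 1.62e-07 by Fisher's exact test), and that of Cox4i1-201 from 33.3% to 26.2%. The intron chain of Cox4i1-204 is the same as the last 2 introns of Cox4i1-201, and its annotated first exon, on chromosome 8 from 120672590 to 120672892, takes in exon 3 of Cox4i1-201 and 135 nt of the intron before it. The tables give no read ends, so a read that ends inside exon 3 cannot be told apart from one that runs on into the intron. The place where the 2 models part is shown, at chr8:120672695-120672754 on the plus strand of GRCm38, with 30 nt that are intron in Cox4i1-201 in lower case and the first 30 nt of its exon 3 in capitals.
Cox4i1-204: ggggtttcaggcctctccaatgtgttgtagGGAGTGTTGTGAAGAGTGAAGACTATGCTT

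Atp5o-201, the other called form, went from 90.2% to 95.5% of its gene's reads (adjusted p = 0.00586 by Fisher's exact test), while single-exon models of the gene went from 6.10% to 2.24%. In 2 members the most read form was not an annotated transcript but a chain that matched the 3′ part of one. For Atp5f1 a model of 7 exons and 1118 nt held 93.1% and 93.8%. Its 5′ end, at position 105959246 of chromosome 3, lay 853 bases inside the start of Atp5f1-201 and 17 bases from the start that RefSeq gives for this gene under the symbol Atp5pb. For Atp5j a model of 458 nt held 74.1% and 73.0%, beside 9.40% and 8.73% for Atp5j-201. Its 5′ end, at 84834832 of chromosome 16, lay 793 bases inside the start of Atp5j-201 and 144 bases from the nearer of the RefSeq starts. In both genes the most read chain was thus filed as incomplete against GENCODE M21, with nearly the same share in both libraries. The shares are those of the intron chain, while the 5′ ends are those of a model with that chain, and no read ends are given. Whether these reads start at a transcript start or are shortened copies was not tested.

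In Atp5b a model of only the last 2 exons, 372 nt long, held 30.4% and 28.1% of reads, beside 64.3% and 67.8% for the full Atp5b-201. Among the 44 members no other unannotated 3′ part was as frequent where the full form led: in Sdhc it held 16.0% and 11.9%, in Atp5c1 7.68% and 3.42%, and in Atp5g3 the 2 most read such forms held 5.35% and 7.58%, and 6.46% and 2.37%. Over all members, 17.7% and 19.0% of spliced reads had a chain that is a proper 3′ part of a longer annotated coding chain, beside 9.82% and 10.1% over all annotated genes. Cox4i1 with 2054 and 1821 such reads and Atp5b with 1341 and 894 gave the most. Atp5f1 with 808 and 683, Atp5j with 774 and 456, Uqcrq with 597 and 388 and Atp5d with 354 and 198 followed. These genes gave most of such reads, and most other members lay below the share over all annotated genes. For Atp5d and Uqcrq the count is made up mostly of annotated coding transcripts that are themselves contained in a longer one.

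Some members had reads on more than 1 annotated protein-coding transcript. Atp5g1 used 2 alternative first exons, with 74.9% and 80.4% in Atp5g1-202 and 20.6% and 15.5% in Atp5g1-201. Atp5g3 was split between Atp5g3-201, with 64.1% and 64.0%, and Atp5g3-202, with 21.4% and 19.9%. The coding regions of Atp5g1-202 and Atp5g3-201 start in exon 2, which the other form of each gene shares, so these forms need not differ in protein. Cox6c-203 held 9.92% and 13.0% of Cox6c. Its intron chain is a 3′ part of that of Cox6c-201. No read ends are given, so a shortened copy of Cox6c-201 cannot be told apart from it. Single-exon models made up a large part of a few short genes: 49.5% and 34.3% of Atp5g2, 31.5% and 21.2% of Uqcrq, 20.95% and 23.7% of Cox6a2, and 17.0% and 18.7% of Cox7a1. For Atp5g2 these single-exon reads bear on the call between the libraries: counted over annotated transcripts only, its log2 ratio was -0.53 and it was not called. Counted in this way Cox8b stood at -0.86 and was not called either.

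By class of transcript model, 86.4% and 87.2% of the members' reads fell on annotated transcripts, beside 64.2% and 60.8% over all annotated genes. Models with an unannotated splice site took 0.935% and 0.990% of the members' reads, beside 18.9% and 22.3%, and models with an unannotated combination of known sites took 0.339% and 0.323%, beside 4.19% and 5.10%. Incomplete models were about as frequent in the members, at 10.8% and 10.2%, as in all genes, at 10.2% and 9.55%. The transcripts of the members are shorter than those of all genes, and the part of length in this difference was not tested. Counted as models instead of reads, annotated transcripts were 20.0% and 21.8% of the members' models, much as over all genes at 21.2% and 21.2%. By models the contrast for unannotated splice sites was reversed, with 32.1% and 31.7% in the members beside 22.6% and 23.9%. Models with an unannotated combination of known sites stayed less frequent in the members, at 13.7% and 12.2% beside 18.1% and 19.8%.

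**Figure D5:**
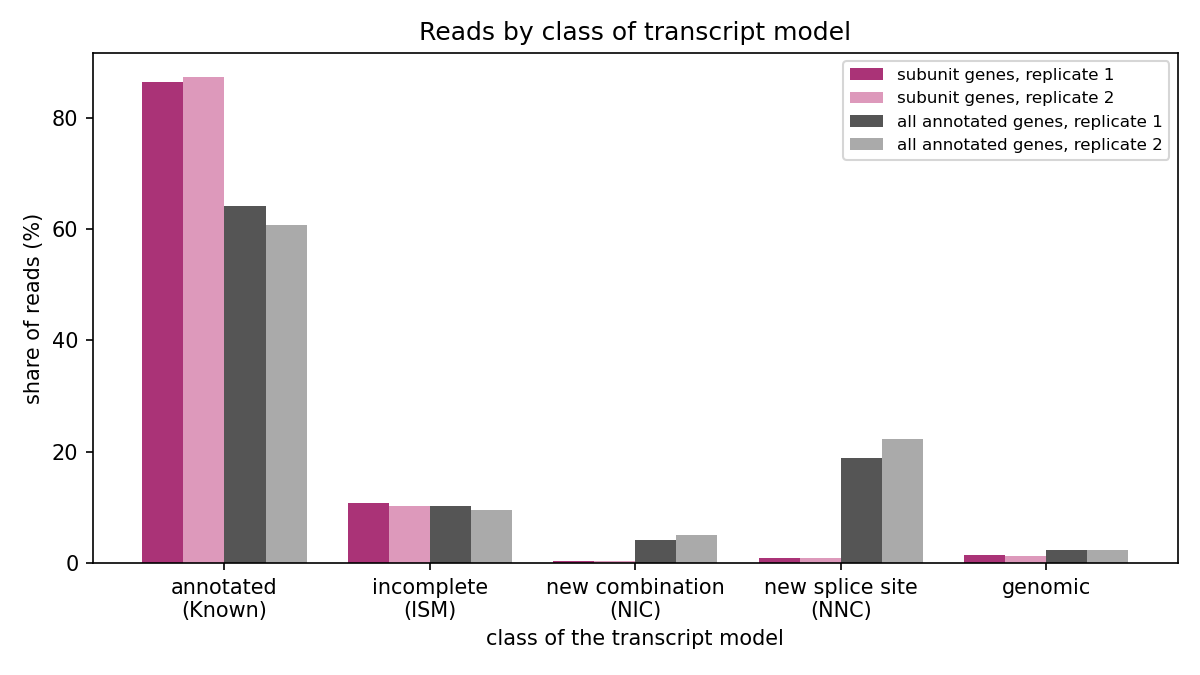
Share of reads, in percent, in each class of transcript model, with bars for the members and for all annotated genes in replicates 1 and 2. The members' reads lie almost wholly in annotated and incomplete models, and their bars for models with a new splice site stay near 0.9% and 1.0% where those of all genes reach 18.9% and 22.3%.

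Last, the bases before the start of the members' genes were searched for letters of known motifs in the RefSeq promoter windows (GRCm38.p6, C57BL/6J). Windows were found for 34 members among 27025 genes, and the 250 bases before the start were read on both strands. The core of the NRF1 site, GCGCATGCG, stood in 5 members (Atp5g2, Atp5k, Atp5l, Cox6a1 and Cycs), or 14.7%, beside 1.49% of all windows. The ETS letters CCGGAAG, bound by the factor that Gabpa belongs to, stood in 8 members, or 23.5%, beside 7.05%. The letters TCAAGGTCA of the oestrogen-related receptors stood in Atp5g3 alone, or 2.94%, beside 0.366%. The muscle E-box CAGCTG stood in Atp5b and Cox8b, or 5.88%, beside 12.8%, and TATAAA in Atp5l alone, or 2.94%, beside 13.0%. The MEF2 letters TATTTATAG, which contain TATAAA on the other strand, stood in no member, beside 0.426% of all windows. A match is a description of letters and not of binding. The windows of the Cox8 paralogs, of which Cox8b held most reads of the family, are shown: Cox8b at chr7:140900447-140900696 and Cox8a at chr19:7217617-7217866, both on the minus strand, 250 bases each, with the E-box in capitals. Cox8a held none of the motifs searched.
Cox8b: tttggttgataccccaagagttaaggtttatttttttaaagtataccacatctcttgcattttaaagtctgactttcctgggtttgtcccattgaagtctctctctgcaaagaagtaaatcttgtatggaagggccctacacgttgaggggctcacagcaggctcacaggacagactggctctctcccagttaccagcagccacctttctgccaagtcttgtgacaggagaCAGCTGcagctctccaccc
Cox8a: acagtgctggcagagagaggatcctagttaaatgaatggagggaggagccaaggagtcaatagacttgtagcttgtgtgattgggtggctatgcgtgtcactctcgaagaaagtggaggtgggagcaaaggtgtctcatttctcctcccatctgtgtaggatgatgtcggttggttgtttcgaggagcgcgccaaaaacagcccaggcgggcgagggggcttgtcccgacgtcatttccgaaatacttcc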

How the data were processed

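The authors deposited, for each library, a table of raw read counts per transcript model and an annotation of those models; per the README files, counts came from a filtered alignment to mm10 with GENCODE M21, and per the source field of the annotations models were named by TALON. Which aligner, platform and model filter were used is not given in the sources used here. For each annotated gene the reads of all model classes were added up and set against all reads of the table, in CPM. A log2 ratio sets replicate 2 against replicate 1 after adding 1 CPM to each, and so understates the change of low genes. Genes with a sum of at least 10 reads were tested with Fisher's exact test under Benjamini-Hochberg adjustment; with 1 group no test across replicates exists, so each difference has no replicate check and p-values compare only these libraries. Dominant forms were tested where each library had 20 or more reads of the gene. Intervals are exact 95% Clopper-Pearson intervals and, like the floor of 3 reads, cover counting error only. Forms were matched between libraries by intron chain, with unannotated single-exon models pooled per gene. Processed pseudogene copies exist for several members, so single-exon reads are uncertain in origin. The code was tested on simulated data. The members, the lists and the tests were chosen with earlier results of these data known. All members may be named, and listed genes only where called or where a result turns on them. Alternatives changed the scaling, the read and fold minimum, the pseudocount, the classes counted, the depth, the length centring and the library left out. Work was done in Python 3.11.15 (scipy 1.17.1, pandas 2.3.3, numpy 2.4.6) and R 4.3.3, with scaling factors from edgeR 4.0.16 and DESeq2 1.42.0.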

Additional observations from a re-analysis of the deposited data

How the results depend on the processing

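The 2 members called between the libraries became 5 with TMM or DESeq2 scaling, 1 without incomplete and genomic models or with the deeper library thinned, and 0 with length centring, annotated transcripts only, a 4-fold minimum or a pseudocount of 5 CPM; the count was 2 with no read minimum. No alternative called a member higher. The median log2 ratio of the members was -0.66 with either scaling, -0.33 over annotated transcripts and -0.072 after length centring. Length centring with the length of the most read protein-coding transcript, added after seeing the data, gave 0 calls and a median of -0.041. The members' share of reads was 3.47% over annotated transcripts only, and 2.27% to 2.63% with either replicate left out. Over annotated transcripts Cox6a2 held 97.3% and Cox7a1 25.8%, and without incomplete and genomic models 97.3% and 25.5%; Atp5g2 held 5.38% and 5.49% under these 2 settings. With either replicate left out Cox6a2 held 97.5% to 98.1%, Cox7a1 27.7% to 30.02%, Cox8b 87.6% to 93.1%, Atp5g1 62.4% to 71.6% and Atp5g2 7.06% to 11.0%, inclusion was 7.46% to 20.7% in Cox7a2l and 0.685% to 1.28% in Atp5c1, and annotated transcripts held 86.4% to 87.2% of reads; counted as models they were 20.9%. Dominant forms were called in 4 members with a 50-read minimum, where Atp5c1 and Uqcrq were added, and in 1, Cox4i1, over annotated transcripts. No paired analysis was possible because there was 1 group. With 2 libraries the SD rests on a single difference, and members with few reads, such as Atp5s and Cox6a1, could not pass the test at this depth unless they differed widely.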
